A study of Homo sapiens with 4 samples.

Results

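The zinc finger gene cluster at 19q13.4 was read from 48 gene symbols that lie near the end of the long arm of chromosome 19, and the members were the entries of the count table that carry one of these symbols. Of the 48 symbols, 42 were in the table of 12912 genes, and all 42 passed the filter on low counts. They were chosen by position with the log2 fold changes of 786-O-VHL over 786-O-Ctrl already known, so their differences between the sublines are given as a description and no test was made over them. ZNF135, ZNF154, ZNF304, ZNF418, ZNF582 and ZNF671 were not found under these symbols and were not analysed here as members. The identifier of ZNF304 (ENSG00000131845.14) is in the table under the symbol AC005261.1, and its values are given separately.

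The 786-O line derives from a clear cell renal carcinoma and lacks functional VHL, the substrate receptor of a ubiquitin ligase that marks hydroxylated HIFα proteins for degradation. RNA was sequenced from 786-O-Ctrl, which is VHL-null, and from 786-O-VHL, in which VHL was restored from the retroviral HA-VHL/wt-pBabe-puro vector, with 2 libraries in each group. The labels of all 4 libraries name 786-OTR, the version of the line that also carries a retroviral reporter of GFP, luciferase and thymidine kinase, and both sublines were grown in RPMI1640 with serum and antibiotics. The question is how the transcriptome differs once VHL is present, and since each group is 1 subline, p-values measure the spread between libraries of a subline and not between independently derived lines.

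Genes of this kind encode proteins with arrays of C2H2 zinc fingers, each a short fold held by a zinc ion, which together read a stretch of DNA. Most of those on chromosome 19 also have a KRAB domain, which binds the corepressor TRIM28 (KAP1), and TRIM28 in turn brings SETDB1, HP1 proteins and histone deacetylases that mark chromatin with methylated H3K9. Many bind transposable elements and keep them silent, and the genes arose by repeated local duplication, so that neighbors on the chromosome are often close relatives. Some of them, ZNF471 and ZNF582 among them, are known for promoters that are methylated in carcinomas.

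The members all lay on chromosome 19 of GRCh37 between 56111388 and 58992597, an interval of 2.88 Mb. That interval holds 103 annotated protein-coding genes, of which 57 have a ZNF symbol and 50 of these are in the table. A KRAB A-box pattern was found in the protein of 33 members, a SCAN domain pattern in 2 (ZNF444 and ZNF446) and neither in 7 (ZNF524, ZNF580, ZNF581, ZNF134, ZNF329, ZNF497 and ZNF837). By comparison, 57.9% of the 418 ZNF genes of the table with a protein matched the KRAB pattern. The KRAB members had between 6 and 23 C2H2 fingers (median 12) in proteins of 402 to 855 residues, whereas the 7 with neither pattern had between 3 and 14. No finger count and no SCAN search were made for ZNF274, whose reading frame is broken on the GRCh37 sequence. A pattern can miss a domain, so a gene without a match may still have one.

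The sequences just upstream of 5 members are shown as examples. ZNF419 and ZNF773 are partly alike neighbors that were both high in 786-O-VHL. ZNF530 and ZNF134 are neighbors with opposite differences, and ZNF667 has the promoter richest in one HIF core sequence. Each sequence is the 250 bases before the annotated start, from RefSeq on GRCh38.p14, read 5′ to 3′ on the strand of the gene. Capitals mark GCGTG and its reverse complement CACGC, one of the forms of the core that HIF binds.
ZNF419, chr19:57487500-57487749, plus strand: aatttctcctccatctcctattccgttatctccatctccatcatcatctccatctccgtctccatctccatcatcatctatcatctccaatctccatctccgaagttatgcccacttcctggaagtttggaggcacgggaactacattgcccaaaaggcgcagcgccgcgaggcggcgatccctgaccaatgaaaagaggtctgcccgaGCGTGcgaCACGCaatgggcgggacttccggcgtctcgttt
ZNF773, chr19:57499688-57499937, plus strand: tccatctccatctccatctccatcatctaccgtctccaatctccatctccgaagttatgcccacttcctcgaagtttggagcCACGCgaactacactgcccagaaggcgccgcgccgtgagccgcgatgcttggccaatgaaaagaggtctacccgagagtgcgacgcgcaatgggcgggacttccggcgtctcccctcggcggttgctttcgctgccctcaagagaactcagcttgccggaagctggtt
ZNF530, chr19:57599635-57599884, plus strand: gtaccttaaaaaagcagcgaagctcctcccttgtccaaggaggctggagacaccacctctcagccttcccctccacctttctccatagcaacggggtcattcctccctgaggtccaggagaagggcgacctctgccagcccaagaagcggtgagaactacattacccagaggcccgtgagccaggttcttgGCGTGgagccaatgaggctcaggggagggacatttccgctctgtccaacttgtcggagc
ZNF134, chr19:57613992-57614241, plus strand: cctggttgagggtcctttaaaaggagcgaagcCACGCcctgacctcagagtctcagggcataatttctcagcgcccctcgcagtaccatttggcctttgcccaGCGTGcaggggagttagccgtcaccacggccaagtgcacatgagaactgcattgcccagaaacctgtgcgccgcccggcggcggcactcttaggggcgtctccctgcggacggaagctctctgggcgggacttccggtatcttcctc
ZNF667, chr19:56477346-56477595, minus strand: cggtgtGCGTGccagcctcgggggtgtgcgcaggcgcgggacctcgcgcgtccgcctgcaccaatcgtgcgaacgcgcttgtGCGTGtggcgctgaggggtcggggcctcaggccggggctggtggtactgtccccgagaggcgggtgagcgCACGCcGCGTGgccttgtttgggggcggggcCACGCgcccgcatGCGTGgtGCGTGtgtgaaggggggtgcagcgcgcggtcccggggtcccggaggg
RefSeq promoters, as windows of 250 bases before and 50 after the start, were matched for 37 of the 42 members, all but ZNF211, ZNF417, ZNF471, ZNF524 and ZNF552. GCGTG or its reverse complement was present in 27 of the 37 (73.0%), compared with 166 of 328 other ZNF genes of the table (50.6%) and 36.3% of all 27305 promoters. The other core form, ACGTG on either strand, was present in 11 of the 37 (29.7%) and in 21.6% of all promoters. The members' windows were rich in the dinucleotide CG, with a median of 23 against 22 in the other ZNF genes and 14 in all promoters, and both core forms contain a CG. Of the 21 members with a promoter that were called higher in 786-O-VHL, 17 held GCGTG (81.0%), as did 10 of the other 16 (62.5%). For ACGTG the split ran the other way, with 4 of the 21 (19.05%) and 7 of the other 16 (43.8%). These letters are a description of the windows and do not show that a factor binds there.

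Library totals were 22141263 and 15714166 counts for 786-O-Ctrl, 2807779 for 786-O-VHL replicate 1 and 16114120 for replicate 2, and 12335 genes were tested with edgeR. Both 786-O-Ctrl columns carry the same replicate number, so these libraries are called the deeper and the shallower one. Values are CPM, counts relative to the library total on the usual scale, adjusted with TMM factors, and 3 counts, the most that a count of 0 allows, correspond to 0.142 and 0.199 CPM in 786-O-Ctrl and to 1.02 and 0.178 CPM in 786-O-VHL, for counting error only. VHL mRNA was 42.9 and 43.9 CPM in 786-O-Ctrl and 178 and 163 CPM in 786-O-VHL (log2 fold change 1.96, edgeR FDR = 2.86e-19), and counts do not separate vector from endogenous transcripts. Renal markers differed between the groups in both directions, since PAX8, PAX2, KRT8 and VIM fell by 0.90, 0.40, 0.56 and 1.21 on the log2 scale (edgeR FDR at most 0.00156) and CDH16 rose by 1.75 (edgeR FDR = 5.09e-11), while KRT18, CUBN and LHX1 were not called. The part of these differences in the values of the members was not tested. PAX8 was between 137 and 277 CPM and CDH16 between 6.93 and 29.8 CPM, CUBN was at most 1.70 CPM, COL1A1 at most 7.12 CPM, PECAM1 was at most 0.427 CPM, and PTPRC, CD3E, CDH5, ALB and HBB were not among the genes of the table.

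More members of the cluster were called higher than lower in 786-O-VHL. The 42 members summed to 316 and 313 CPM in the 786-O-Ctrl libraries and to 479 and 490 CPM in the 786-O-VHL libraries. Both sums in 786-O-VHL lay above both in 786-O-Ctrl, and the libraries of a group were close to each other although 786-O-VHL replicate 1 supplied only 1411 of the members' counts and replicate 2 supplied 8253. At an FDR under 0.05 over all genes tested, 24 of the 42 members were called higher in 786-O-VHL, 2 were called lower and 16 were not called. Over all genes tested the shares were 32.6% higher and 31.9% lower. Without 786-O-VHL replicate 2, 14 members were called higher, and the lower calls went to 0 with DESeq2 or without the shallower 786-O-Ctrl library. The median log2 fold change of the members was 0.64, with a range from -1.23 to 1.98, against 0.017 over all genes. Both 786-O-VHL libraries lay above both 786-O-Ctrl libraries in 32 members and below them in 4, and the groups overlapped in 6, where 40.8% and 39.2% of all genes tested were above and below. Higher levels by more than 2-fold were fitted for 12 members and lower levels for 1.

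**Figure D1:**
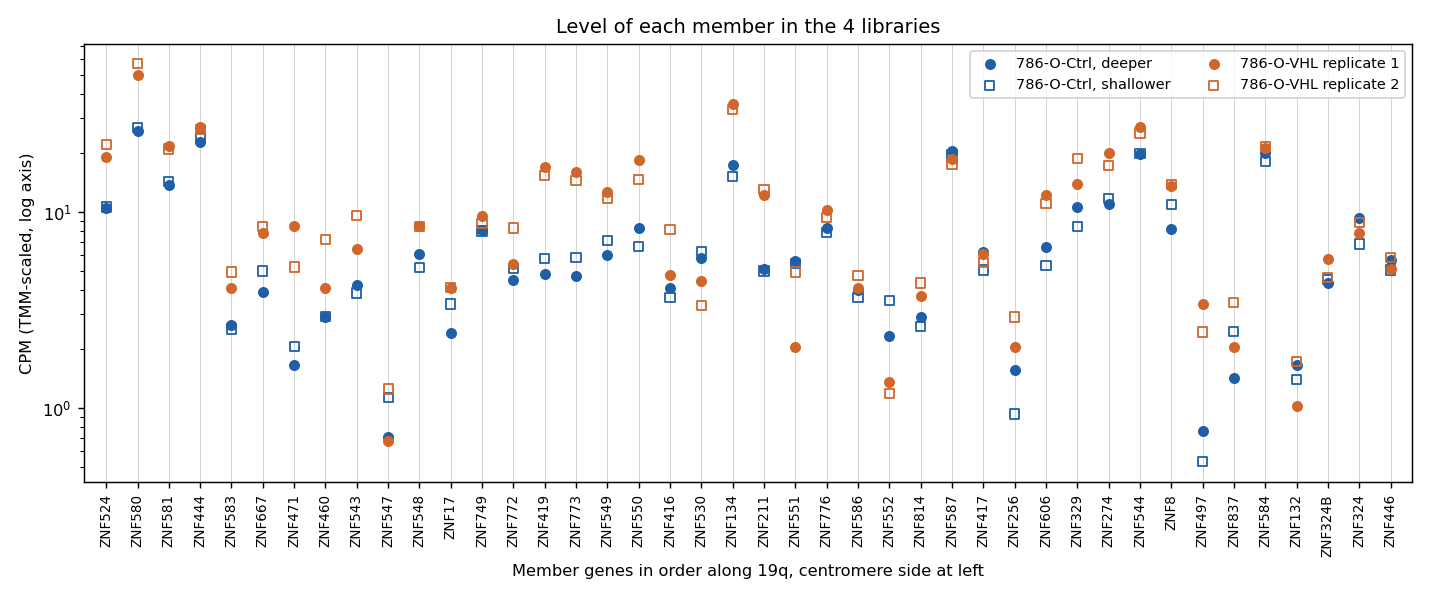
Level of each of the 42 members in each library, in TMM-scaled CPM on a log axis, with members in their order along 19q from the centromere side. Blue symbols are the 2 libraries of 786-O-Ctrl and orange symbols the 2 of 786-O-VHL, and the orange symbols lie above both blue ones in 32 members.

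Members differed widely in level, and the most abundant had no KRAB pattern. Per kb of annotated exon, the highest means over the libraries were 15.3 CPM for ZNF580, 10.8 for ZNF581, 10.8 for ZNF524, 4.93 for ZNF134 and 3.50 for ZNF444, and the lowest was 0.252 for ZNF814. The first to the last spanned 60.6-fold. In 786-O-Ctrl, 17 members had a mean under 5 CPM. The median member had 24 counts in 786-O-VHL replicate 1, with a range from 2 to 147, and 7 members had fewer than 10 counts in a library, so single low members are known with little precision.

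Log2 fold changes are those fitted by edgeR, and a ratio of mean CPM printed beside one is a separate quantity whose log2 need not equal it. Among the members without a KRAB pattern, the genes of 3 short proteins at the centromere side, ZNF580, ZNF581 and ZNF524, were called higher in 786-O-VHL, whereas ZNF444 in the same stretch was not. ZNF580, which encodes a protein of 172 residues with 3 fingers, was 25.8 and 26.8 CPM in 786-O-Ctrl and 49.9 and 56.7 CPM in 786-O-VHL, with a log2 ratio of 1.06 ± 0.0942 (SE). ZNF581, its neighbor with 4 fingers, was 13.7 and 14.2 CPM in 786-O-Ctrl and 21.7 and 20.9 CPM in 786-O-VHL (0.60 ± 0.131). ZNF524 was 10.4 and 10.6 CPM against 18.99 and 22.0 CPM (1.02 ± 0.140). The groups did not overlap in any of these 3 genes, all of which were called higher. Annotated exons of ZNF580, ZNF581 and CCDC106 overlap on the same strand, so that their reads may not be fully separated, and CCDC106 itself was 5.51 and 6.64 CPM in 786-O-Ctrl and 12.5 and 11.8 CPM in 786-O-VHL (log2 fold change 0.99, edgeR FDR = 3.49e-05).

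ZNF134, with 10 fingers and no KRAB pattern, was 17.3 and 15.2 CPM in 786-O-Ctrl and 35.6 and 33.2 CPM in 786-O-VHL, a ratio of mean CPM of 2.12 (fitted log2 fold change 1.05 ± 0.117). ZNF329, with 12 fingers, was 10.5 and 8.44 CPM against 13.9 and 18.6 CPM (0.87 ± 0.161). Both were called higher, ZNF329 not without 786-O-VHL replicate 2, and the exons of both overlap no other annotated gene. ZNF497, with 14 fingers, had the largest fold among the members and one of the lowest levels, with 0.760 and 0.532 CPM in 786-O-Ctrl and 3.39 and 2.43 CPM in 786-O-VHL (1.98 ± 0.426). These values rest on 16, 8, 10 and 41 counts, and antisense genes, A1BG-AS1 and ZNF497-AS1 among them, overlap its exons. The remaining 3 genes without a KRAB pattern were not called. ZNF837 was 1.42 and 2.46 CPM against 2.03 and 3.44 CPM, with overlapping groups, and it was called higher with library totals alone, with limma-voom, without the shallower 786-O-Ctrl library and without 786-O-VHL replicate 1. The SCAN genes ZNF444 and ZNF446 had log2 fold changes of 0.19 ± 0.113 and 0.07 ± 0.227.

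Of the 33 members with a KRAB pattern, 18 were called higher (54.5%), 2 lower and 13 were not called, and their median log2 fold change was 0.56. Of ZNF genes with the pattern on chromosome 19 outside the interval, 56.1% were called higher, and of all genes tested 32.6%. The largest differences were in ZNF471, ZNF419, ZNF773 and ZNF211. ZNF471 was 1.66 and 2.06 CPM in 786-O-Ctrl and 8.48 and 5.22 CPM in 786-O-VHL, a ratio of means of 3.68 (fitted log2 1.70 ± 0.299). The groups did not overlap, although the libraries of 786-O-VHL differed from each other more than those of 786-O-Ctrl.

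ZNF419, whose splice variant gives rise to a minor histocompatibility antigen on renal carcinoma cells, was 4.80 and 5.78 CPM in 786-O-Ctrl and 17.0 and 15.3 CPM in 786-O-VHL, a ratio of means of 3.05 (fitted log2 1.59 ± 0.180). ZNF773, next to it on the chromosome, was 4.70 and 5.85 CPM against 15.9 and 14.5 CPM, a ratio of means of 2.88 (fitted 1.51 ± 0.183). In both genes the 786-O-VHL libraries lay far above those of 786-O-Ctrl. The transcripts of this pair are partly alike, since 17.9% of the 50-base words of ZNF773 are also found in ZNF419 and 10.8% of those of ZNF419 in ZNF773, and an annotated gene on the same strand overlaps both, so their values are not independent. The upstream sequences printed above share a run of 37 bases. ZNF772, the neighbor on the other side of ZNF419, was 4.51 and 5.12 CPM in 786-O-Ctrl and 5.43 and 8.25 CPM in 786-O-VHL (0.67 ± 0.222) and was called higher, but not without the deeper 786-O-Ctrl library or without 786-O-VHL replicate 2.

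ZNF211 was 5.08 and 4.98 CPM in 786-O-Ctrl and 12.2 and 13.0 CPM in 786-O-VHL, a ratio of means of 2.51 (fitted log2 1.35 ± 0.185). ZNF460 was 2.90 and 2.92 CPM against 4.07 and 7.18 CPM (1.15 ± 0.259), and ZNF543 was 4.23 and 3.85 CPM against 6.44 and 9.56 CPM (1.12 ± 0.221). ZNF256, a KRAB protein known to bind TRIM28, was 1.57 and 0.930 CPM against 2.03 and 2.91 CPM (1.08 ± 0.374). All 4 were called higher with no overlap between groups, but in ZNF460 and ZNF543 the 786-O-VHL libraries were themselves far apart, and neither was called without 786-O-VHL replicate 2. The same held for ZNF256, which was also not called without the shallower 786-O-Ctrl library.

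ZNF274, which is known to bring SETDB1 and TRIM28 to the 3′ ends of other zinc finger genes, was 10.9 and 11.6 CPM in 786-O-Ctrl and 20.0 and 17.3 CPM in 786-O-VHL (log2 0.67 ± 0.146). It was called higher, both 786-O-VHL libraries lay above both of 786-O-Ctrl, and its exons overlap no other annotated gene. The overlapping convergent genes ZNF549 and ZNF550 were called higher as well, with log2 fold changes of 0.87 ± 0.183 and 1.04 ± 0.173, but their annotated exons overlap on opposite strands and strand use in counting is not given, so the pair cannot be read as separate genes there. The other KRAB members called higher were ZNF583, ZNF667, ZNF548, ZNF416, ZNF606, ZNF544 and ZNF8, with log2 fold changes from 0.38 for ZNF544 to 0.92 for ZNF416. Each of these except ZNF606 lost its call when 1 library was left out, the deeper 786-O-Ctrl library for ZNF544, ZNF548, ZNF583, ZNF667 and ZNF8, the shallower one for ZNF544, ZNF548 and ZNF583, and 786-O-VHL replicate 2 for ZNF416, ZNF548, ZNF583, ZNF667 and ZNF8. Of these ZNF606, with 13 fingers, was 6.60 and 5.32 CPM in 786-O-Ctrl and 12.2 and 11.04 CPM in 786-O-VHL, and it was called higher in every fit. With DESeq2, ZNF416, ZNF544, ZNF548, ZNF583 and ZNF8 were not called, and neither were ZNF256 and ZNF772.

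The 2 members called lower were both KRAB genes of low level. ZNF530 was 5.79 and 6.25 CPM in 786-O-Ctrl and 4.41 and 3.32 CPM in 786-O-VHL (log2 -0.76 ± 0.252). ZNF552 was 2.33 and 3.52 CPM against 1.36 and 1.19 CPM (-1.23 ± 0.391). The groups did not overlap in either gene, yet ZNF552 had only 4 and 20 counts in 786-O-VHL, 18.4% of its 50-base words occur in other genes, mostly ZNF587B, and its exons overlap ZNF586 on the other strand. Neither was called lower by DESeq2, where the log2 fold changes were -0.73 and -1.25, nor without the shallower 786-O-Ctrl library (-0.70 and -0.93) or without 786-O-VHL replicate 2 (-0.45 and -1.07). ZNF530 was also not called without the deeper 786-O-Ctrl library (-0.81) or with thinned libraries (-0.38), where ZNF552 had too few counts to be tested. ZNF551 was 5.60 and 5.45 CPM in 786-O-Ctrl and 2.03 and 4.93 CPM in 786-O-VHL (-0.35 ± 0.257). It was not called, and its lower value rests on the 6 counts of 786-O-VHL replicate 1.

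Several KRAB members had log2 fold changes near 0, including the pair ZNF587 and ZNF417, near-identical genes whose proteins are known to bind HERV-K elements. ZNF587 was 20.3 and 19.5 CPM in 786-O-Ctrl and 18.7 and 17.3 CPM in 786-O-VHL (log2 -0.18 ± 0.127), and ZNF417 was 6.22 and 5.05 CPM against 6.10 and 5.52 CPM (-0.01 ± 0.227). Neither was called, and the groups overlapped in ZNF417. Of the 50-base words of ZNF417, 35.6% also occur in ZNF587, and of those of ZNF587, 24.2% occur in ZNF417, so reads may have been lost or shared between them. ZNF324 and ZNF324B, another pair with shared sequence, had log2 fold changes of 0.07 ± 0.196 and 0.14 ± 0.248. ZNF132 (0.04 ± 0.399, between 1.02 and 1.72 CPM in the 4 libraries), ZNF776 (0.24 ± 0.181) and ZNF586 (0.26 ± 0.255) were not called either.

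The remaining uncalled KRAB members were ZNF547, ZNF17, ZNF749, ZNF814 and ZNF584, with log2 fold changes between 0.15 and 0.61. ZNF547 had 2 counts in 786-O-VHL replicate 1, and its groups overlapped. ZNF814 was called higher with library totals alone, with limma-voom and without 786-O-VHL replicate 1. Outside the 42, the gene listed as AC005261.1, whose identifier is that of ZNF304, a KRAB gene known to bring SETDB1 and DNMT1 to silenced tumor suppressors, was 9.02 and 8.11 CPM in 786-O-Ctrl and 10.9 and 10.2 CPM in 786-O-VHL. Its log2 fold change was 0.26 ± 0.177, with no overlap between groups and no call.

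Along the chromosome, called and uncalled members were mixed in 5 of 7 consecutive blocks of 6, while 1 block held only called members and 1 held only uncalled ones. No test of clustering was made. The first block from ZNF524 to ZNF667 had 5 called higher and a median log2 fold change of 0.89, the next from ZNF471 to ZNF17 had 4 (median 0.84), and the one from ZNF749 to ZNF550 had 5 (median 0.96). The summed level of the last of these was 36.2 and 38.5 CPM in 786-O-Ctrl and 78.7 and 73.0 CPM in 786-O-VHL. From ZNF416 to ZNF776, 3 were called higher and 1 lower (median 0.58).

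The block from ZNF586 to ZNF256 had 1 called higher, 1 lower and a median of 0.13. Its sum was 37.3 and 35.2 CPM in 786-O-Ctrl and 36.0 and 36.0 CPM in 786-O-VHL, so the groups overlapped. All 6 members from ZNF606 to ZNF497 were called higher by edgeR (median 0.77), and their sum was 56.7 and 56.6 CPM against 90.2 and 88.3 CPM. Of these, ZNF544 and ZNF8 were not called by DESeq2. In contrast, 0 of the last 6, from ZNF837 to ZNF446 at the telomere side, were called by edgeR or DESeq2 (1 was higher at an unadjusted edgeR p under 0.05). ZNF837 was called under the alternatives given above and ZNF584 with library totals alone. The fitted value of ZNF837 (0.74 ± 0.349) was above those of ZNF274, ZNF8 and ZNF544 in the block before, which were called. The block had a median of 0.11 and sums of 42.3 and 38.3 CPM in 786-O-Ctrl and 42.7 and 45.8 CPM in 786-O-VHL.

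Neighbors in the order had a Pearson r of 0.239 and a Spearman rho of 0.356 between their log2 fold changes over 41 pairs, some of which share reads or exons. Correlations of the members' log2 fold change with their finger number (r = 0.118, n = 41), GC content (0.025, n = 42), exon length (0.053) and level per kb (0.133) were weak, and all are across genes of the same 4 libraries. Where overlap with other genes is concerned, 11 members have no overlapping annotated exon, of which 7 were called higher and 1 lower (median log2 fold change 0.87). Among the 22 with an overlap on the same strand, 10 were called higher (median 0.45), and among the 9 with an overlap only on the opposite strand, 7 were higher and 1 lower (0.91).

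**Figure D2:**
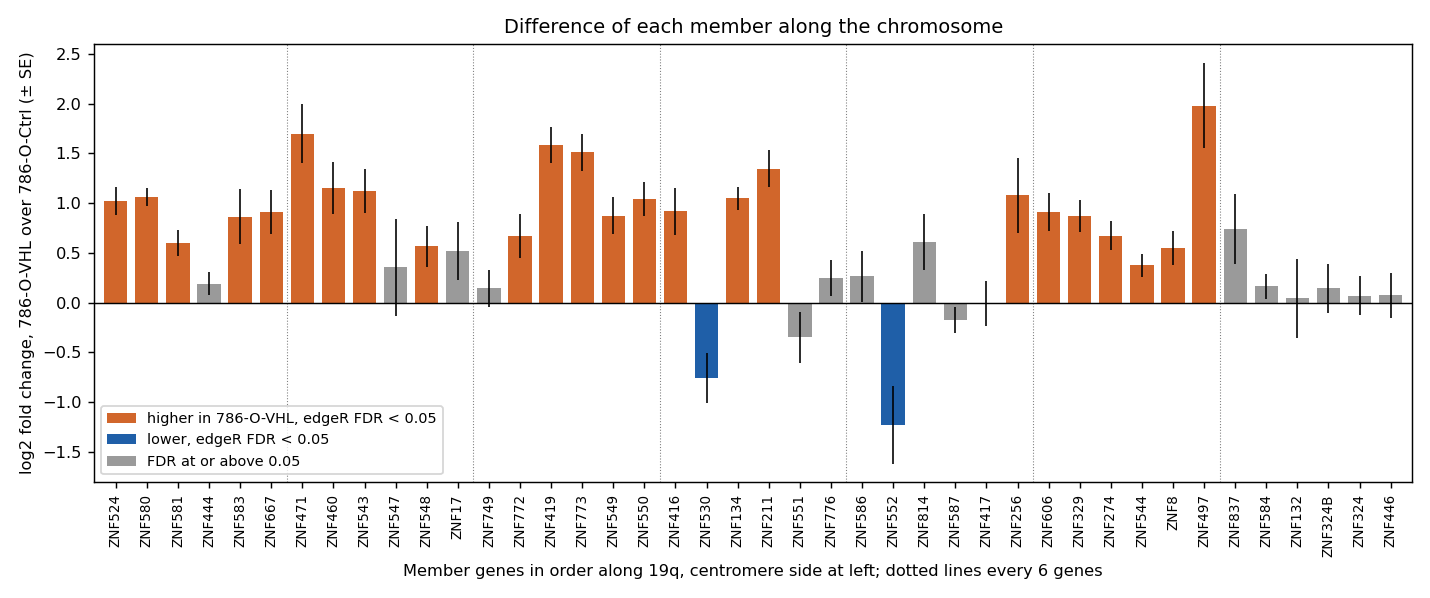
Log2 fold change of each member, 786-O-VHL over 786-O-Ctrl, with its standard error, in the order of the genes along 19q. Colors give the edgeR call over all genes tested and dotted lines separate blocks of 6, and the 6 members from ZNF606 to ZNF497 are all called higher while the last 6 are all uncalled.

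Zinc finger genes elsewhere on chromosome 19 were also called higher more often than lower in 786-O-VHL. Of 151 ZNF genes tested that lie on chromosome 19 outside the interval, 80 were called higher (53.0%) and 6 lower, with a median log2 fold change of 0.55, against 57.1% and 0.64 for the members. Of 211 on other chromosomes, 79 were called higher (37.4%) and 32 lower, with a median of 0.19. The 8 other ZNF genes inside the interval had 4 higher and 1 lower (median 0.19), and 686 genes of chromosome 19 without a ZNF symbol had 280 higher and 176 lower (median 0.16). In summed levels, ZNF genes of chromosome 19 outside the interval came to 1327 and 1371 CPM in 786-O-Ctrl and 1960 and 1993 CPM in 786-O-VHL, and those of other chromosomes to 4469 and 4483 CPM against 4983 and 5072 CPM.

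Genes of any chromosome without a ZNF symbol whose mean level lay within the quartiles of the members' levels, 1410 in all, had 523 called higher and 269 lower, with a median of 0.20. The difference between the members and these groups was not tested, because the members were chosen with these values known. Split by the KRAB pattern, ZNF genes of chromosome 19 outside the interval had medians of 0.62 with it (114 genes) and 0.39 without it (37), those of other chromosomes 0.19 (85) and 0.18 (123), and the members 0.56 (33) and 0.87 (9). Among other ZNF genes that rose, the 3 with the smallest p were ZNF558, ZNF561 and ZNF627, all on chromosome 19, with log2 fold changes of 1.69, 1.76 and 1.71 (edgeR FDR from 3.11e-14 to 2.89e-12). Those that fell with the smallest p lie on other chromosomes and were ZNF395 (-1.30), ZNF367 (-1.37) and ZNF207 (-0.92), with edgeR FDR from 4.99e-15 to 3.65e-12. None of these 3 matched the KRAB pattern.

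**Figure D3:**
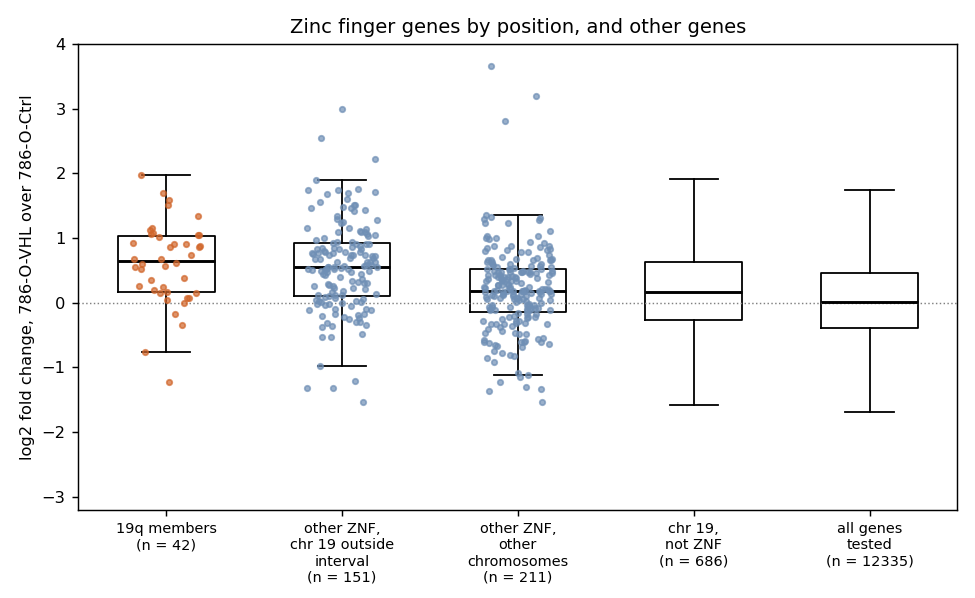
Log2 fold change, 786-O-VHL over 786-O-Ctrl, of the 42 members, of other ZNF genes on chromosome 19 and on other chromosomes, of other chromosome 19 genes and of all 12335 genes tested. Boxes span the quartiles with the median as a line, whiskers reach to 1.5 times the box, points are single genes in the 3 ZNF groups only, and the medians are 0.64, 0.55, 0.19, 0.16 and 0.017.

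In a list of corepressors and heterochromatin factors, here called corepressors, more genes fell than rose in 786-O-VHL. The list reaches beyond TRIM28 and its partners to factors of DNA methylation such as UHRF1, DNMT1 and HELLS. Of 23 corepressor genes in the table, 13 fell, 4 rose and 6 were not called at an edgeR FDR under 0.05, with a median log2 fold change of -0.24. ATF7IP2, EHMT2 and DAXX were not analysed here. TRIM28, whose gene starts 62834 bases beyond the last member, was 524 and 498 CPM in 786-O-Ctrl and 262 and 275 CPM in 786-O-VHL, and fell by 0.92 on the log2 scale (edgeR FDR = 4.15e-13). SETDB1, the H3K9 methyltransferase that TRIM28 brings, was 32.1 and 30.0 CPM against 33.2 and 33.3 CPM and was not called (edgeR FDR = 0.415). Other H3K9 methyltransferases of the list differed from it. SUV39H1 and SUV39H2 had log2 fold changes of -1.44 and -0.86 (edgeR FDR = 1.1e-09 and 4.19e-06), while EHMT1 was not called (-0.10, edgeR FDR = 0.211). The groups did not overlap in TRIM28, with both 786-O-VHL libraries below both of 786-O-Ctrl.

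UHRF1, which reads hemimethylated DNA and H3K9 methylation, was 220 and 202 CPM in 786-O-Ctrl and 48.2 and 54.0 CPM in 786-O-VHL (log2 -2.004, edgeR FDR = 9.13e-19). DNMT1, the maintenance DNA methyltransferase, was 257 and 253 CPM against 117 and 116 CPM (-1.13, edgeR FDR = 1.05e-14). HELLS, a chromatin remodeler needed for DNA methylation, and the deacetylase HDAC1 had log2 fold changes of -1.94 and -0.78 (edgeR FDR = 2.97e-13 and 3.15e-11). The groups did not overlap in any of these 4 genes. UHRF1, DNMT1 and HELLS are also expressed mostly in dividing cells, and the proliferation genes MCM2, PCNA and MKI67, which were chosen after their values were seen, had log2 fold changes of -2.22, -1.83 and -1.26 (edgeR FDR at most 1.62e-15). The part of proliferation in these values was not tested. Among the corepressors that rose, ATRX and MORC2 had log2 fold changes of 0.51 and 0.48 (edgeR FDR = 2.15e-07 and 1.85e-06). ATF7IP and SMARCAD1 rose as well, with log2 fold changes of 0.33 and 0.22 (edgeR FDR = 0.00181 and 0.0241).

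Of 8 genes for demethylases that remove H3K9 methylation, 5 rose (62.5%) and 0 fell, with a median log2 fold change of 0.50 by edgeR. In this list, 0 were lower at an unadjusted edgeR p under 0.05 and 0 were lower by DESeq2. Over all genes tested, 32.6% were called higher and 31.9% lower by edgeR. KDM7A was 11.96 and 12.8 CPM in 786-O-Ctrl and 30.5 and 35.0 CPM in 786-O-VHL (1.46, edgeR FDR = 2.63e-11). KDM4C was 14.5 and 14.3 CPM against 26.5 and 29.9 CPM (1.01, edgeR FDR = 3.34e-08), and KDM4B was 64.5 and 62.7 CPM against 90.9 and 95.2 CPM (0.56, edgeR FDR = 6.53e-08). KDM4D, at 2.66 and 2.92 CPM against 4.41 and 1.72 CPM, was not called (-0.31 ± 0.364), and its 786-O-VHL libraries lay on either side of those of 786-O-Ctrl. In KDM7A, KDM4C and KDM4B both 786-O-VHL libraries lay above both of 786-O-Ctrl. Neither list was tested against the members, and mRNA levels do not measure the methylation of DNA or of H3K9 at the cluster.

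**Figure D4:**
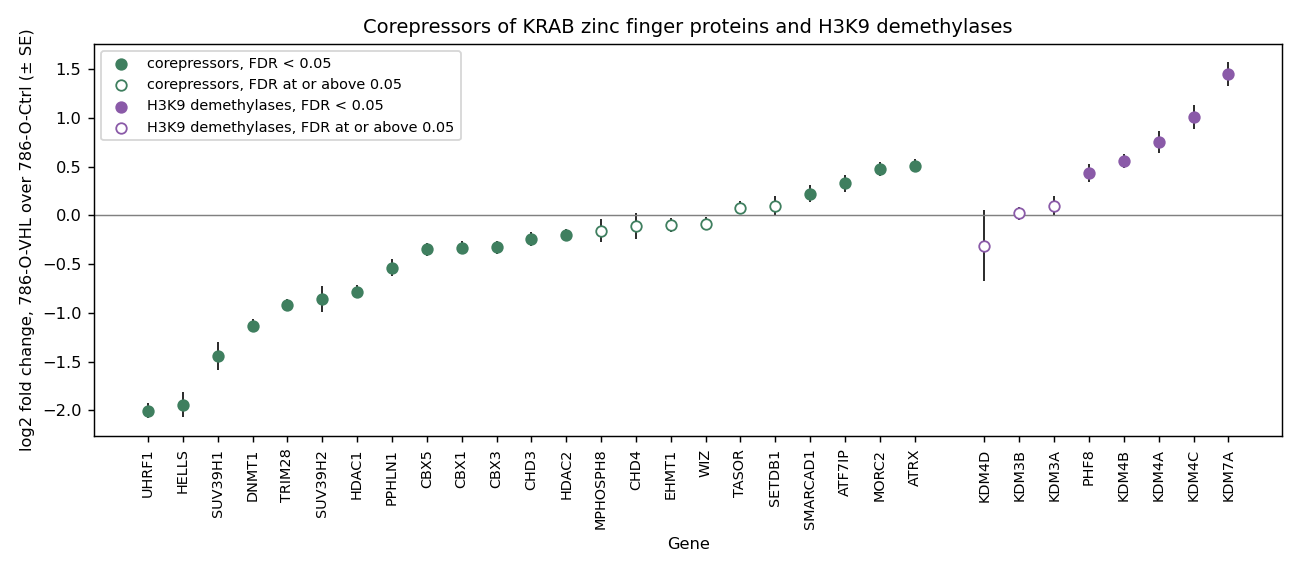
Log2 fold change, 786-O-VHL over 786-O-Ctrl, with its standard error, of 23 genes for corepressors and heterochromatin factors (green) and 8 H3K9 demethylase genes (purple), each sorted by value. Filled points passed an edgeR FDR under 0.05, and 13 corepressors including TRIM28 are filled and below 0 while 5 demethylases are filled and above 0. Over all genes tested, 31.9% were called lower and 32.6% higher.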

How the data were processed

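Total RNA of both sublines (2 libraries each) was made into Illumina TruSeq libraries. The authors used hg19 for alignment, and the deposited values are raw counts for each of 12912 genes. The submitters' processing notes name STAR and CASAVA without a role. Which tool counted the reads, whether strand was used and which annotation was taken is not given in the sources used here.

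Samples were grouped by genotype. The test was that of edgeR 4.0.16 (R 4.3.3, filterByExpr with a minimum count of 10, TMM, quasi-likelihood F test with group as the only term, Benjamini-Hochberg adjustment over 12335 genes, FDR 0.05), and 577 genes were removed by the filter. The biological coefficient of variation was 4.31%. The paper used DESeq2, which was run as an alternative. With 2 libraries against 2, an exact permutation test cannot go below 0.333, so FDR values rest on a spread shared between genes. Standard errors are those implied by the F statistic. Of the identifiers, 12749 matched the GRCh37 annotation (GENCODE), which gave coordinates, overlaps, shared 50-base words and proteins, in which KRAB, SCAN and C2H2 patterns were searched. That annotation can differ from the one used for counting.

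The members, lists and tests were chosen with earlier results of these data known. Genes named by rule were the 10 members with the highest and the 8 with the lowest fold change, the 5 most abundant per kb, near-identical copies, members without a KRAB pattern, ZNF274 and ZNF304, the 3 other ZNF genes with the smallest p in each direction, at most 5 corepressors or demethylases per direction, TRIM28, SETDB1 and VHL. Other members, MCM2, PCNA, MKI67, CCDC106, ATF7IP, SMARCAD1, SUV39H1, SUV39H2 and EHMT1 were named after their values were seen. Versions of the other tools were limma 3.58.1 for limma-voom and DESeq2 1.42.0. The alternatives were RLE size factors, library totals alone, no filter, at least 10 counts in every library, DESeq2, limma-voom, thinning to the shallowest library, each library left out, and a loess correction (span 0.3) for GC content and exon length.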

Additional observations from a re-analysis of the deposited data

How the results depend on the processing

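The number of members called higher was 24 with TMM, 29 with library totals alone (41.2% of all genes), 17 with DESeq2 (21.8%), 17 of 36 with thinned libraries (25.96%) and 14 to 26 with each library left out, lowest without 786-O-VHL replicate 2 (23.5%). In every fit that tested them, 13 members were called higher: ZNF524, ZNF580, ZNF581, ZNF471, ZNF419, ZNF773, ZNF549, ZNF550, ZNF134, ZNF211, ZNF606, ZNF274 and ZNF497, of which ZNF497 had too few counts to be tested with at least 10 counts in every library or after thinning. The share of all genes called higher in every fit was not counted, so these 13 cannot be set against it. In single fits that share ran from 21.8% with DESeq2 to 41.2% with library totals alone. Members called lower numbered 1 with at least 10 counts in every library, 0 with DESeq2, 1 after thinning (ZNF551, also the 1 called without 786-O-VHL replicate 2) and 0 to 2 with each library left out. The median log2 fold change of the members was 0.77 with library totals alone, which moved the median of all genes to 0.15, and 0.57 with DESeq2, 0.77 after thinning, 0.52 with the GC and length correction and 0.49 to 0.72 with each library left out. Other ZNF genes called higher numbered 104 with DESeq2, 97 after thinning and 99 to 174 with each library left out, those called lower 24 and 22 with DESeq2 and thinning, and their median was 0.46 with library totals alone, 0.37 with at least 10 counts in every library, 0.27 with the GC and length correction and 0.31 to 0.36 with each library left out. Corepressors called higher numbered 2 with DESeq2, 1 after thinning and 2 to 4 with each library left out, lowest without 786-O-VHL replicate 2. Of 707 values of single genes, 637 kept direction and call, 40 lost the call, 13 gained one and 17 turned direction, none of them called under that alternative. These were uncalled members. ZNF132 was -0.074 with DESeq2 and -0.604 to 0.162 with each library left out (lowest without 786-O-VHL replicate 2), ZNF324 -0.064 after thinning and -0.124 to 0.311 with each left out, ZNF324B -0.290 and ZNF776 -0.168 after thinning, ZNF417 0.121 with library totals, 0.153 after thinning and -0.138 to 0.163 with each left out, ZNF446 -0.052 with the GC and length correction and -0.087 to 0.152 with each left out, and ZNF547 -0.396 to 0.653 with each left out (lowest without 786-O-VHL replicate 2). Apart from settings that drop genes or counts, the cause was not tested. No paired analysis was possible because both 786-O-Ctrl columns carry the same replicate number. Members with few counts are limited by the shallow 786-O-VHL replicate 1.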
